A study of Mus musculus with 8 samples.

Results

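Desaturases put double bonds into fatty acids, and 7 genes of this kind were examined in inguinal white adipose tissue (ING WAT) of mice at postnatal day 21 (PN21) and postnatal day 98 (PN98). They are the 4 stearoyl-CoA desaturase genes *Scd1*, *Scd2*, *Scd3* and *Scd4* and the 3 fatty acid desaturase genes *Fads1*, *Fads2* and *Fads3*, taken by symbol from the 38384 genes of the deposited table. Of the 91969 transcripts in that table, 10 carry 1 of these symbols. The GENCODE vM21 annotation assigns 8 of the 10 to the desaturases and 2 to microRNAs that lie inside *Scd2* and *Fads1*. The family was chosen with the values of the same age comparison known, among them the values of 0 that *Scd1* has at PN98. The differences between the ages are therefore given as a description, without a p-value for any desaturase. Where desaturases are counted as called, nothing is read from the count.

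Poly(A)+ RNA of ING WAT was sequenced from 8 C57BL/6j mice. Of these, m1, m49, m138 and m145 were killed at PN21, the age of weaning, and m35, m106, m114 and m125 at PN98, as young adults. No genetic change or drug separates the groups. The study's PN98 animals had received either a standard or a western style diet, and the sources used here do not say which of them were sequenced. The standard diet itself also changed after PN21, to a formula with less fat. Age and diet therefore cannot be told apart under either diet. According to the study's methods, animals had very little food the night before dissection and were in a fasted state. ING WAT is the subcutaneous fat of the groin, and a piece of it holds adipocytes beside vessels, nerve, immune cells and parts of neighbouring tissues. *Ddx3y*, a Y-linked gene, was at 18.1 to 25.9 FPKM in all 8 mice, and *Xist* was at 0.832 FPKM or less.

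Stearoyl-CoA desaturases sit in the membrane of the endoplasmic reticulum and turn saturated acyl-CoA into the monounsaturated oleate and palmitoleate that fill triglycerides and membranes. They take electrons from NADH through cytochrome b5 and its reductase. SCD1 is the form best known from mouse fat and liver, where its gene is a classical target of insulin, dietary sugar and the lipogenic factor SREBP-1c, and polyunsaturated fatty acids lower its expression. The *Fads* genes encode desaturases with a cytochrome b5 domain of their own. FADS2 carries out the first desaturation of the essential fatty acids, FADS1 a later one that leads to arachidonic acid, and FADS3 is known for acting on the sphingoid bases of ceramides.

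All 7 genes lie on chromosome 19 in 2 clusters (GRCm38, GENCODE vM21). The *Scd* cluster spans 205 kb in the order *Scd3* (chr19:44203269-44244016), *Scd2* (chr19:44293674-44306864), *Scd4* (chr19:44333092-44346743) and *Scd1* (chr19:44394455-44407879), the last on the minus strand and the others on the plus strand. The *Fads* cluster spans 155 kb in the order *Fads3* (chr19:10041569-10060110, plus strand), *Fads2* (chr19:10062765-10101746, minus strand) and *Fads1* (chr19:10182888-10196877, plus strand). Each *Scd* transcript has 6 exons and a coding sequence of 1059 to 1077 bases, and each *Fads* transcript has 12 exons and a coding sequence of 1332 to 1347 bases.

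The *Scd* genes are close copies of each other, which bears on how sequencing reads can be divided among them. Over the aligned coding sequence, *Scd1* was identical to *Scd3* at 91.5% of positions, to *Scd2* at 90.3% and to *Scd4* at 84.6%. Identity was lower among the *Fads* genes, at 71.1% for *Fads2* with *Fads3*, 67.3% for *Fads1* with *Fads2* and 62.7% for *Fads1* with *Fads3*. The longest run of bases shared by *Scd1* and *Scd3* was 185 bases, from coding base 463 to 647 of *Scd1* and from 475 to 659 of *Scd3*. It is printed here because it is the stretch where a read can least be told apart between a gene listed at 0 at PN98 and one that was higher at that age. In *Scd1* it covers chr19:44401693-44401865 and, across an intron, chr19:44400363-44400374, and in *Scd3* chr19:44235804-44235976 and chr19:44238376-44238387. The same stretch of *Scd2* (chr19:44299642-44299814 and chr19:44301212-44301223) differs at 1 base and that of *Scd4* (chr19:44338943-44339115 and chr19:44341221-44341232) at 5 bases. Capitals mark bases that differ from *Scd1*, and all are coding sequence, read 5′ to 3′ along the gene.
Scd1 and Scd3: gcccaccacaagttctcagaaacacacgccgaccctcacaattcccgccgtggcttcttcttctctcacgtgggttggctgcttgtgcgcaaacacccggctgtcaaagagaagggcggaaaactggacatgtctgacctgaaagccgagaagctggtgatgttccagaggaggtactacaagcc
Scd2: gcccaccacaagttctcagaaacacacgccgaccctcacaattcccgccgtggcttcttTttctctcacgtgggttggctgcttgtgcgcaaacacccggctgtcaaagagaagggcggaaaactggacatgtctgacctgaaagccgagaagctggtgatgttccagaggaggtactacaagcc
Scd4: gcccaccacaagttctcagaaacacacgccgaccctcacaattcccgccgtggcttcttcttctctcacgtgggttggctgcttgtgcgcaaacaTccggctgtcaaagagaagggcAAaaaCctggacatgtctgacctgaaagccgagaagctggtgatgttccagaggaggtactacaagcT

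Outside such stretches the transcripts differ. Of the 4733 windows of 100 bases, the read length, in the *Scd1* transcript, 126 (2.66%) also occur in a transcript of another gene. The share was 2.54% for *Scd3*, 0.900% for *Scd2* and 0.530% for *Scd4*, and no window of *Fads1*, *Fads2* or *Fads3* occurs elsewhere. *Scd1* shares 86 such windows with *Scd3*, 48 with *Scd2* and 17 with *Scd4*. How fragments from these windows were assigned is not given in the sources used here, so the levels of the 4 *Scd* genes are uncertain. Because *Scd1* was so abundant at PN21 (mean 1980 FPKM), a small share of windows can weigh heavily on the other genes at that age. If every *Scd1* fragment of the shared windows were counted to the other gene, it would receive 50.2 FPKM in *Scd3*, 10.5 FPKM in *Scd4* and 17.7 FPKM in *Scd2*. The listed PN21 means were 28.4, 11.2 and 98.1 FPKM, so the possible error is about as large as the level of *Scd4* and larger than that of *Scd3*. At PN98 the size of this error is unknown, because the *Scd1* values listed there may be missing estimates.

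Values are FPKM, fragments normalised to transcript length and to the mapped fragments of a library, summed over the transcripts of a gene. Read counts are not part of the files used, and sequencing depth is therefore unknown and counting error not given. Nothing in the labels gives a batch. Mouse m35 stood apart from the other PN98 mice in genes close to the desaturases. The summed FPKM of 9 genes of fatty acid synthesis was 1216 in m35 against 6711 to 15433 in the other PN98 mice, and 8 of the 9 genes had their lowest PN98 value in m35. A list of lymphocyte genes summed to 282 FPKM in m35 against 4.36 to 58.3 in the other PN98 mice. Among the PN21 mice, m145 had the lowest value of 8 of the 9 synthesis genes, with a sum of 4232 against 5246 to 10387. Results are therefore also given without m35.

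*Scd1* was by far the most abundant desaturase at PN21 and was listed at 0 in every mouse at PN98. At PN21 it stood at 2104 FPKM in m1, 2935 in m49, 1907 in m138 and 976 in m145, a mean of 1980 ± 805 (SD, n = 4). That mean ranks 29 among all protein coding genes at PN21. At PN98 the table gives 0 for m35, m106, m114 and m125. These may be missing estimates rather than measured levels, which FPKM values alone cannot tell apart, so no fold change is given against them, and the *Scd* sums and shares at PN98 carry the same limit. *Scd1* has a single transcript in the table, ENSMUST00000041331 of 4832 bases.

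**Figure D1:**
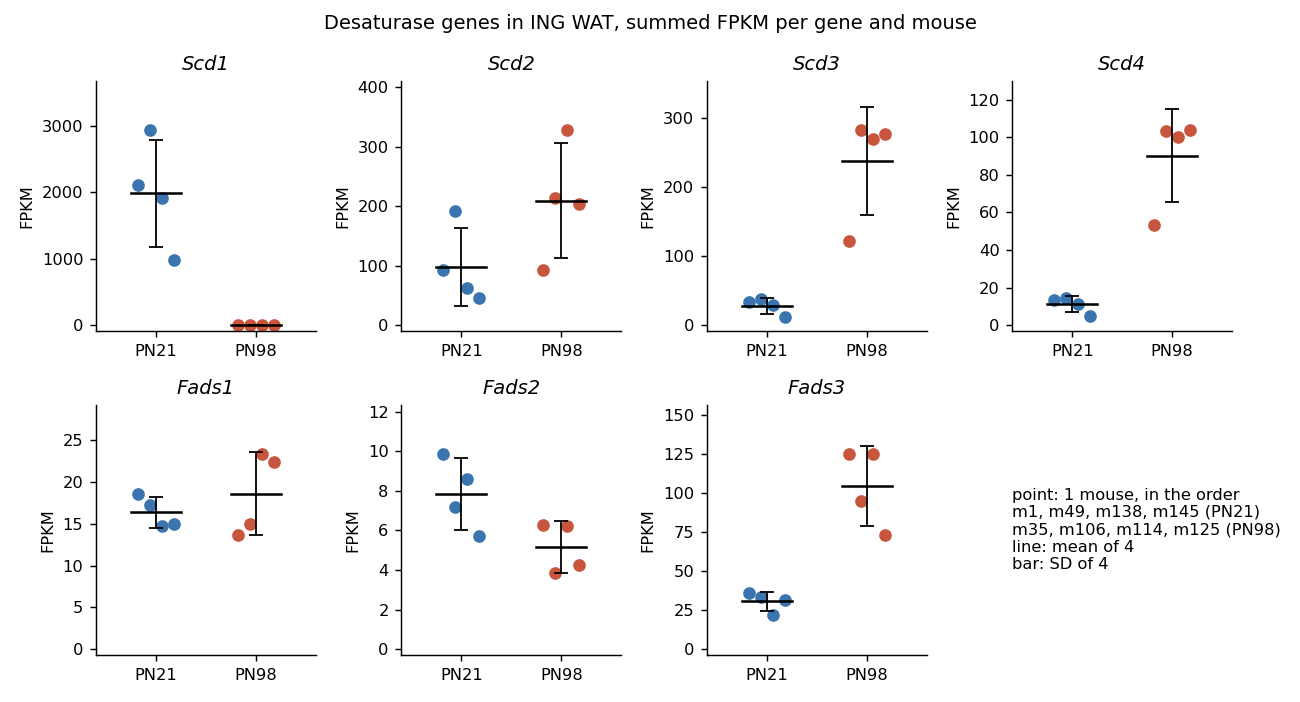
Summed FPKM (vertical axes, linear) of the 7 desaturase genes in ING WAT of 4 PN21 mice (blue) and 4 PN98 mice (red), with 1 point per mouse, the mean of 4 as a line and the SD as a bar. *Scd1* lies between 976 and 2935 at PN21 and at 0 in all PN98 mice, whereas *Scd3*, *Scd4* and *Fads3* are higher in each PN98 mouse than in any PN21 mouse.

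*Scd2*, which is expressed in many tissues and strongly in brain, overlapped between the ages. It was at 93.2 FPKM in m1, 192 in m49, 62.3 in m138 and 45.3 in m145, and at 93.1 in m35, 213 in m106, 328 in m114 and 204 in m125. PN98 mouse m35 had the level of PN21 mouse m1, and m49 lay close to the other PN98 mice. On the scale of log2(summed FPKM + 1), *Scd2* was 1.17 higher at PN98 (SE 0.51). Without m35 the difference was 1.51 (SE 0.48).

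*Scd3*, known from skin and sebaceous glands, was the *Scd* gene with the largest difference upwards. It was at 34.4 FPKM in m1, 38.3 in m49, 29.0 in m138 and 12.1 in m145, and at 122 in m35, 283 in m106, 270 in m114 and 277 in m125. The ages did not overlap, and m35 was the only PN98 mouse under 270 FPKM. The log2 difference was 3.06 (SE 0.42), or 8.34-fold, and 3.35 (SE 0.37) without m35.

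*Scd4*, first described in heart, had a lower level than *Scd3* in every mouse. It was at 13.5 FPKM in m1, 14.7 in m49, 11.4 in m138 and 5.17 in m145, and at 53.2 in m35, 104 in m106, 99.996 in m114 and 104 in m125. Again the ages did not overlap and m35 was lowest at PN98. The log2 difference was 2.94 (SE 0.35), or 7.65-fold, and 3.17 (SE 0.33) without m35. A second *Scd4* transcript with a retained intron, ENSMUST00000133314, did not exceed 0.0572 FPKM in any mouse.

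*Fads1* was nearly level. It was at 18.6 FPKM in m1, 17.2 in m49, 14.8 in m138 and 14.9 in m145, and at 13.7 in m35, 14.99 in m106, 23.4 in m114 and 22.4 in m125. The PN98 mice enclosed the range of the PN21 mice, with m35 and m106 at its lower end and m114 and m125 above it. The log2 difference of 0.14 was smaller than its standard error of 0.21, and it was 0.27 (SE 0.20) without m35.

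*Fads2* was the least abundant desaturase at PN21 and, apart from the values listed for *Scd1*, the only one with a lower mean at PN98. It was at 9.89 FPKM in m1, 7.18 in m49, 8.60 in m138 and 5.72 in m145, and at 6.30 in m35, 3.85 in m106, 6.25 in m114 and 4.23 in m125. Mouse m145 lay within the range of the PN98 mice, so that the ages overlapped. The log2 difference was −0.52 (SE 0.22), and −0.61 (SE 0.23) without m35.

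*Fads3* was higher in every PN98 mouse than in any PN21 mouse. It was at 35.6 FPKM in m1, 33.6 in m49, 21.5 in m138 and 31.2 in m145, and at 125.1 in m35, 94.9 in m106, 124.8 in m114 and 72.7 in m125. Here m35 was among the 2 highest PN98 mice, the opposite of its place in *Scd2*, *Scd3* and *Scd4*. The log2 difference was 1.73 (SE 0.24), or 3.33-fold, and 1.64 (SE 0.25) without m35.

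Ordered by mean FPKM at PN21, *Scd1* was followed by *Scd2* (98.1 ± 65.5, SD, n = 4), *Fads3* (30.5 ± 6.23), *Scd3* (28.4 ± 11.5), *Fads1* (16.4 ± 1.85), *Scd4* (11.2 ± 4.25) and *Fads2* (7.85 ± 1.7998). *Fads3* and *Scd3* overlapped in that order, as did *Scd3* and *Fads1*, and *Scd4* and *Fads2*. At PN98 the order was *Scd3* (238 ± 77.8), *Scd2* (210 ± 96.1), *Fads3* (104 ± 25.4), *Scd4* (90.2 ± 24.7), *Fads1* (18.6 ± 4.998) and *Fads2* (5.16 ± 1.30), with *Scd1* at 0. *Scd3*, *Scd2*, *Fads3* and *Scd4* each overlapped with the next of them, while *Fads1* lay below all values of *Scd4* and above all values of *Fads2*.

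All 7 genes had a mean of at least 1 FPKM over the 8 mice and so entered the limma fit across genes. Leaving *Scd1* aside, 3 of 6 desaturases were called at an adjusted p under 0.05, all 3 higher at PN98 (*Scd3*, *Scd4* and *Fads3*), where 5.30% of the 16092 genes tested were called and 2.36% were called as higher. The same 3 were called without m35, where 3538 of 15983 genes tested were called, 680 of them as higher. With sample weights *Fads2* was called too, as lower (log2 difference −0.79, SE 0.19), which made 4 of 6. That setting called 4639 of 16092 genes, 3492 of them as lower. Of the 7, 4 did not overlap between the ages, 3 of them higher at PN98, where 16.1% of all genes tested did not overlap and 6.07% lay higher at PN98. *Scd1* is among the 4 only through its listed values of 0, which may be missing estimates. Since the family was chosen on this comparison, nothing is read from these counts. The median log2 difference of the 6 was 1.45, against −0.21 over all genes tested. At the level of single transcripts on log2(FPKM), the condition of no value of 0 removed *Scd1*, and 3 of 6 desaturase transcripts were called, all higher, where 1.36% of 23172 transcripts were called and 0.716% as higher.

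The values of 0 for *Scd1* were set against the other genes of the table. In all, 55 genes were at 0 in all 4 PN98 mice and above 0 in all 4 PN21 mice, and 45 of them had a PN21 mean under 1 FPKM. Only 4 reached 10 FPKM at PN21. After *Scd1* these were *Traj48* with 530 FPKM, a T cell receptor joining segment, *Gm26003* with 19.1 FPKM, a snoRNA, and *Mir3968* with 11.3 FPKM, a microRNA, all with transcripts far shorter than *Scd1*. The next was *Krt14*, the keratin of basal epithelium, with 3.47 FPKM. In the other direction 14 genes were at 0 at PN21 and above 0 in all PN98 mice, none with a PN98 mean above 0.344 FPKM.

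Among abundant protein coding genes *Scd1* had no counterpart. Of 923 protein coding genes with a PN21 mean of at least 100 FPKM, 1 was at 0 in all PN98 mice, and that was *Scd1*. A value of 0 in at least 1 PN98 mouse occurred in 6 of the 923, of which 4 were genes of the mitochondrial genome. These 4 (*mt-Atp6*, *mt-Atp8*, *mt-Co3* and *mt-Co1*) were at 0 in m106 and m125 and had up to 26743 FPKM in other mice. Since genes that every fat cell uses are among them, *Scd1* is only said to be listed at 0 here. Among the 20 genes with the highest PN21 mean of any kind, 4 had a value of 0 at PN98, all of the mitochondrial genome and each in 2 mice. None of 15 genes in a list of abundant adipocyte genes was at 0 in any mouse, although *Plin1* in that list was at only 1.73 to 20.2 FPKM. The cause of the values of 0 was not tested.

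Of the 6 nearest protein coding neighbours of the *Scd* cluster, none had the pattern of *Scd1*. On the side of *Scd3*, *Bloc1s2* was at 13.0 ± 2.09 FPKM at PN21 and 7.39 ± 3.11 at PN98 (SD, n = 4) and *Cwf19l1* at 3.33 ± 0.288 and 2.71 ± 0.711. On the side of *Scd1*, *Sec31b* was at 3.48 ± 1.10 FPKM at PN21 and 5.97 ± 1.23 at PN98. None of these 3 passed the limma test across genes (adjusted p = 0.112 for *Bloc1s2*, 0.376 for *Cwf19l1* and 0.108 for *Sec31b*). The other protein coding neighbours, *Pkd2l1*, *Wnt8b* and *Gm20538*, were at 2.096 FPKM or less in every mouse, at either age. *Pkd2l1* was at 0 in 7 mice, among them 3 of the PN98 mice, and *Gm20538* in 5, among them m106 and m114 at PN98, while *Wnt8b* was above 0 in all PN98 mice.

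The neighbours of the *Fads* cluster did not share the difference of *Fads3*. *Rab3il1*, which lies 3.19 kb from *Fads3*, was at 12.6 ± 2.00 FPKM at PN21 and 9.36 ± 4.07 at PN98 (limma, adjusted p = 0.325). *Fth1*, the ferritin heavy chain, was at 1428 ± 426 and 1977 ± 257 FPKM (adjusted p = 0.183). On the side of *Fads1*, *Fen1*, a nuclease of DNA replication, was at 9.69 ± 1.53 and 3.84 ± 2.04 FPKM (limma, adjusted p = 0.05005, which missed the threshold) and *Tmem258* at 72.0 ± 12.54 and 49.8 ± 6.52 (adjusted p = 0.122). *Best1* and *Myrf* stayed under 2.09 FPKM in every mouse.

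**Figure D2:**
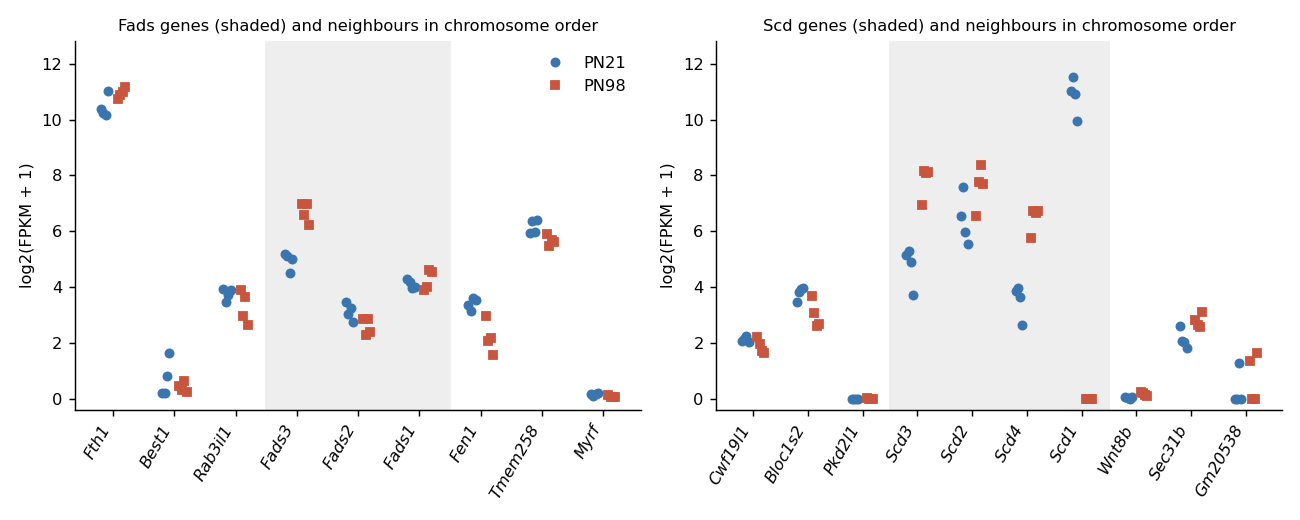
log2(FPKM + 1) of the desaturase genes (shaded) and the 3 nearest protein coding genes on each side, in chromosome order, with 1 blue circle per PN21 mouse and 1 red square per PN98 mouse. *Scd1* is the only gene of either region that is listed at 0 in all PN98 mice.

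With *Scd1* listed at 0, the make-up of the *Scd* family in the table differed between the ages. Its 4 genes together held 2245 FPKM in m1, 3180 in m49, 2010 in m138 and 1038 in m145, and 268 in m35, 600 in m106, 699 in m114 and 585 in m125. The sums did not overlap, and the highest PN98 mouse was below the lowest PN21 mouse. *Scd1* made up 92.3% to 94.9% of the sum at PN21. *Scd2* held 3.10% to 6.03%, *Scd3* 1.16% to 1.53% and *Scd4* 0.463% to 0.603%.

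At PN98 the sum was made of the other 3 genes. *Scd3* held 38.7% to 47.4%, *Scd2* 34.8% to 47.0% and *Scd4* 14.3% to 19.8%. Without *Scd1*, the remaining 3 genes summed to 62.5 to 245 FPKM at PN21 and to 268 to 699 FPKM at PN98, again without overlap. These sums rest on the *Scd1* values as listed.

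**Figure D3:**
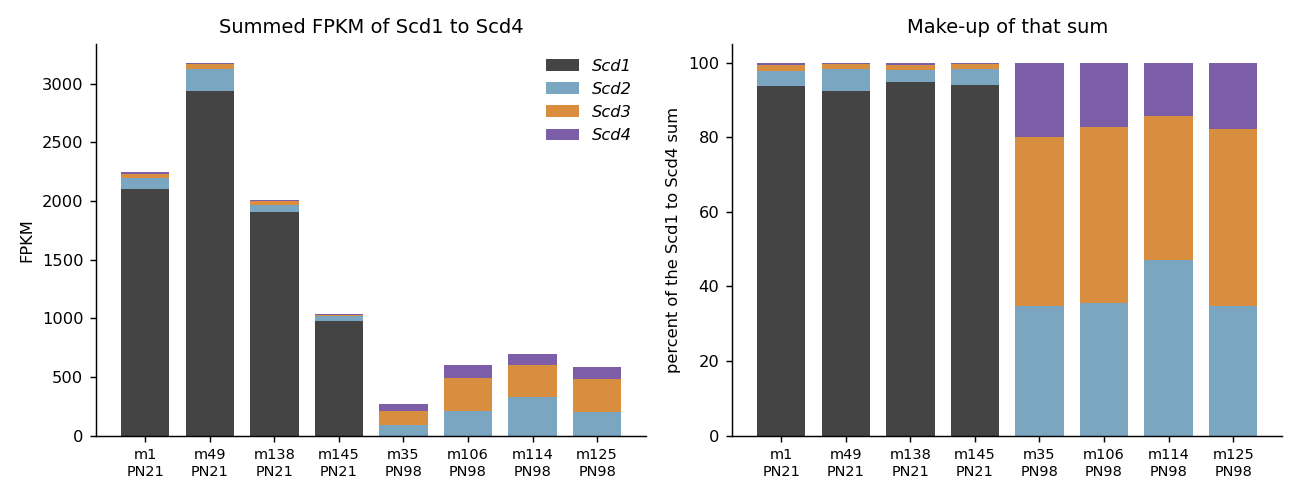
Stacked bars of *Scd1*, *Scd2*, *Scd3* and *Scd4* per mouse, in FPKM (left) and as percent of their sum (right). *Scd1* makes up 92.3% or more of the sum in each PN21 mouse and none of it at PN98, where *Scd3* and *Scd2* are the largest parts.

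Ratios between genes in the same mouse remove whatever scales a whole library. *Scd3* and *Scd4* kept nearly the same ratio at both ages, although both genes were much higher at PN98. The ratio of *Scd3* to *Scd4* was 2.54 in m1, 2.60 in m49, 2.54 in m138 and 2.33 in m145, and 2.29 in m35, 2.73 in m106, 2.70 in m114 and 2.67 in m125. Its mean was 2.50 ± 0.116 at PN21 and 2.60 ± 0.209 at PN98 (SD, n = 4), and the ages overlapped. The 2 lowest ratios belonged to m145 and m35, the mice with the lowest *Scd3* and *Scd4* of their age. The windows shared with *Scd1* limit both genes here too. At PN98 the size of that limit is unknown, because the *Scd1* values listed there may be missing estimates.

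*Scd1* also ran close to *Scd3* among the PN21 mice, with the limit that the shared windows set on *Scd3* at that age. The ratio of *Scd1* to *Scd3* was 61.2 in m1, 76.7 in m49, 65.8 in m138 and 80.8 in m145, while *Scd1* itself varied 3.01-fold and *Scd3* 3.17-fold among them. *Scd2* was looser, as the ratio of *Scd1* to *Scd2* ran from 15.3 to 30.6. Between the ages *Scd3* moved away from *Scd2*. The ratio of *Scd3* to *Scd2* was 0.200 to 0.466 at PN21 and 0.824 to 1.36 at PN98, and the lowest PN98 ratio was that of m114, the mouse with the most *Scd2*.

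The *Fads* genes drifted apart from each other as well. The ratio of *Fads3* to *Fads1* was 1.91 in m1, 1.95 in m49, 1.46 in m138 and 2.09 in m145, and 9.16 in m35, 6.33 in m106, 5.33 in m114 and 3.25 in m125. The ratio of *Fads3* to *Fads2* was 2.50 to 5.46 at PN21 and 17.2 to 24.6 at PN98. Neither ratio overlapped between the ages, whereas that of *Fads1* to *Fads2* did, at 1.72 to 2.61 and 2.17 to 5.29. The spread of the *Fads* genes among mice of 1 age was smaller than that of the *Scd* genes. From the lowest to the highest mouse of an age, *Fads1* varied 1.26-fold and 1.71-fold, *Fads2* 1.73-fold and 1.64-fold and *Fads3* 1.65-fold and 1.72-fold (PN21 and PN98), against 4.24-fold and 3.52-fold for *Scd2*. At PN21, m145 was the low mouse of *Scd3* (12.1 FPKM against 29.0 to 38.3) and *Scd4* (5.17 FPKM against 11.4 to 14.7). The PN21 ranges without m145 were not computed. At PN98 the smaller spread of the *Fads* genes rested on m35. Without it *Scd2* varied 1.61-fold, *Scd3* 1.05-fold and *Scd4* 1.04-fold, and *Fads1*, *Fads2* and *Fads3* 1.56-fold, 1.62-fold and 1.72-fold. *Scd3* and *Scd4* then varied less than each *Fads* gene.

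**Figure D4:**
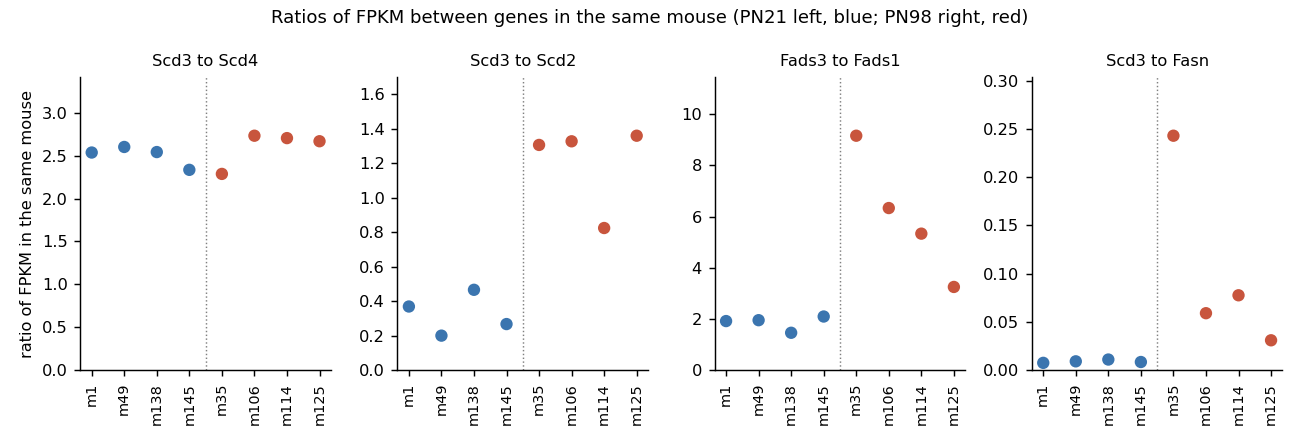
Ratios of FPKM between 2 genes in the same mouse, 1 point per mouse, with PN21 in blue and PN98 in red and each axis starting at 0. *Scd3* to *Scd4* stays between 2.29 and 2.73 in all mice, *Scd3* to *Scd2* and *Fads3* to *Fads1* are higher at PN98, and *Scd3* to *Fasn* is highest in m35.

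Fatty acid synthase (*Fasn*), which makes the palmitate that desaturases and elongases work on, was used to see whether the *Scd* genes followed lipogenesis within an age. *Fasn* was at 4611 FPKM in m1, 4239 in m49, 2660 in m138 and 1448 in m145, and at 501 in m35, 4804 in m106, 3491 in m114 and 8988 in m125. At PN21 *Fasn* varied 3.18-fold, much like *Scd1*, and the ratio of *Scd1* to *Fasn* was 0.456 to 0.717. At PN98 *Fasn* varied 17.9-fold, *Scd3* 2.33-fold and *Scd4* 1.95-fold. Without m35 these ranges were 2.57-fold, 1.05-fold and 1.04-fold. The ratio of *Scd3* to *Fasn* was 0.00745 to 0.0109 at PN21, and at PN98 it was 0.243 in m35, 0.0589 in m106, 0.0775 in m114 and 0.0308 in m125. The ages did not overlap in this ratio.

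The other genes of the pathway were grouped into lists, starting with the electron supply of desaturases. Of its 6 genes tested, 2 rose and none fell with an adjusted p under 0.05 (limma). *Cyb5a*, the microsomal cytochrome b5 that hands electrons to SCD enzymes, rose from 344 ± 74.8 to 712 ± 89.1 FPKM (SD, n = 4; log2 difference 1.07, SE 0.20, adjusted p = 0.0256). *Cyb5r3*, the reductase that feeds cytochrome b5, rose from 68.0 ± 13.0 to 121 ± 12.1 FPKM (0.83, SE 0.18, adjusted p = 0.0379). Both were higher in all 4 PN98 mice than in any PN21 mouse, m35 included. *Cyb5r4* and *Cyb5rl*, further reductases, did not pass (adjusted p = 0.191 and 0.201). The summed FPKM of the list was 402 to 598 at PN21 and 861 to 1144 at PN98. The median log2 difference over its genes was 0.29.

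Fatty acid elongation, which adds carbons before and after desaturation, had 10 genes tested, of which 1 rose and none fell. This was *Hacd2*, a dehydratase of the elongation cycle, from 14.4 ± 4.90 to 37.2 ± 6.60 FPKM (SD, n = 4; log2 difference 1.35, SE 0.24, limma adjusted p = 0.0213). Its relative *Hacd3* differed by −0.44 (adjusted p = 0.119) and the elongase *Elovl1* by −0.76 (adjusted p = 0.164). The abundant reductases of the cycle, *Tecr* and *Hsd17b12*, differed by 0.47 (adjusted p = 0.237) and 0.45 (adjusted p = 0.397). Without m35, *Tecr* passed as well (adjusted p = 0.0466). *Elovl2*, *Elovl4* and *Elovl7* had a mean under 1 FPKM and were not tested. The median over the 10 genes was 0.18.

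None of 9 genes of fatty acid synthesis passed in limma, with or without m35, and 0 of 9 had an unadjusted p under 0.05. Their spread at PN98 was wide. *Acly*, which makes cytosolic acetyl-CoA from citrate, was at 787 ± 429 FPKM at PN21 and 489 ± 350 at PN98 (SD, n = 4; limma adjusted p = 0.445), with 53.3 FPKM in m35. *Thrsp*, a lipogenic gene of fat and liver, was at 1895 ± 804 and 1189 ± 840 FPKM (adjusted p = 0.379). *Fasn* differed by 0.00 on the log2 scale (SE 0.84, adjusted p = 0.999), *Slc25a1*, the citrate carrier, by 0.59 (adjusted p = 0.545) and *Me1*, malic enzyme, by 0.33 (adjusted p = 0.772). Mouse m35 weighed heavily on these values. Without it *Fasn* differed by 0.85 (SE 0.48, limma adjusted p = 0.237), *Slc25a1* by 1.11 (adjusted p = 0.144), *Me1* by 0.92 (adjusted p = 0.216), *Acly* by −0.18 (adjusted p = 0.817) and *Thrsp* by −0.28 (adjusted p = 0.640). The median over the list was 0.00, and 0.55 without m35. Each of the 9 genes was above 0 in every mouse, unlike *Scd1*.

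None of 13 lipogenic regulators passed in limma, and 4 had an unadjusted p under 0.05 (median log2 difference −0.04). *Srebf1*, which encodes SREBP-1c, was at 198 ± 50.8 FPKM at PN21 and 227 ± 121 at PN98 (SD, n = 4; limma adjusted p = 0.900). *Cebpa*, an adipocyte transcription factor, was at 207 ± 46.1 and 304 ± 108 FPKM (adjusted p = 0.299). The lowest adjusted p was that of *Insig2*, which retains SREBP in the endoplasmic reticulum, with a log2 difference of 0.80 (adjusted p = 0.0799). *Srebf2* differed by −0.83 (adjusted p = 0.109, and 0.0144 without m35), *Mlx*, the partner of the sugar-sensing factor ChREBP, by −0.76 (adjusted p = 0.136) and *Rxra* by 0.36 (adjusted p = 0.157). *Mlxipl*, which encodes ChREBP, was left out since the decimals of 1 of its transcripts could not be read with certainty.

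Acyl-CoA synthetases, which make the acyl-CoA that SCD enzymes use, had 4 genes tested, of which none passed in limma and 0 had an unadjusted p under 0.05. *Acsl1*, the main form in fat, was at 643 ± 224 FPKM at PN21 and 1202 ± 491 at PN98 (SD, n = 4; limma adjusted p = 0.187, and 0.0489 without m35). *Acsl3*, *Acsl4* and *Acsl5* differed by 0.58, 0.21 and −0.21 (adjusted p = 0.304, 0.662 and 0.705). Among desaturases and hydroxylases of sphingolipids and sterols, none of 4 tested passed in limma and 1 had an unadjusted p under 0.05. *Degs1*, the main ceramide desaturase, was at 47.9 ± 6.92 and 47.3 ± 19.2 FPKM (adjusted p = 0.848), and *Degs2* differed by −1.38 (adjusted p = 0.171, and 0.0214 without m35). *Msmo1* and *Sc5d* of sterol synthesis differed by −0.44 and 0.02 (adjusted p = 0.3001 and 0.979).

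**Figure D5:**
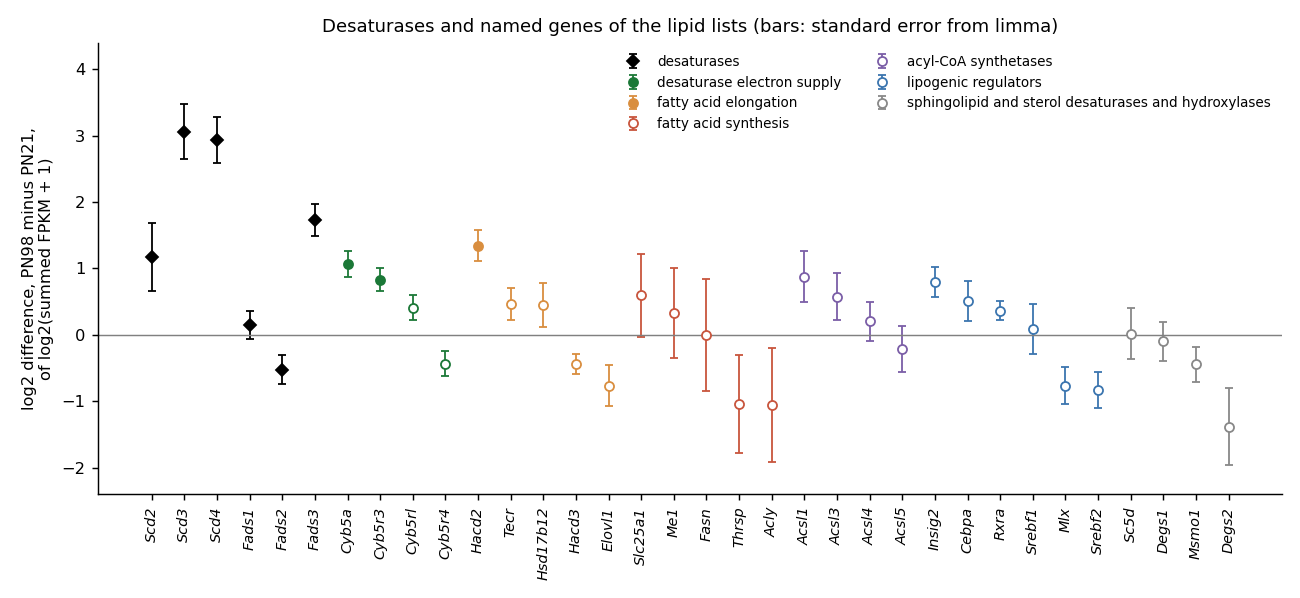
Difference in log2(summed FPKM + 1) between PN98 and PN21 (vertical axis, PN98 minus PN21) with its standard error from limma, for 6 desaturases (black diamonds) and the named genes of 6 lipid lists (circles, filled where the adjusted p is under 0.05). *Scd3* and *Scd4* lie at 3.06 and 2.94, and the filled circles are *Cyb5a*, *Cyb5r3* and *Hacd2*.

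Genes with the most similar values were found as the smallest root mean square (RMS) difference of log2(summed FPKM + 1), each gene centred on its mean over the 8 mice, among genes with a mean of at least 10 FPKM. For *Scd3* the nearest of 8207 genes was *Scd4* at an RMS difference of 0.12, followed at a distance by *Gsta3* at 0.58 and *Hsd11b1* at 0.58. For *Scd4* they were *Scd3*, *Gsta3* at 0.51 and *Asph* at 0.53. The limit set by windows shared with *Scd1* applies to both *Scd3* and *Scd4*. *Scd2* stood farther from them, with *Marc1* at 0.35, *Mmd* at 0.43 and *Gm13131* at 0.44, and its RMS difference to *Scd3* was 1.02. For *Fads3* the nearest were *Eepd1* at 0.18, *Art3* at 0.18 and *Palmd* at 0.20, and for *Fads1* they were *Hagh* at 0.12, *Gm10698* at 0.13 and *Taf13* at 0.14. *Fads1* and *Fads3* differed from each other by 0.89. *Fads2* had a mean under 10 FPKM and *Scd1* had values of 0, so no nearest genes are given for them. *Scd1* was among the 8207 genes, at an RMS difference of 5.51 or more from these 5. That distance rests on its PN98 values of 0, which may be missing estimates, so nothing is read from it.

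Markers of several cell types differed between the ages, and in bulk tissue fewer cells of a type and less RNA per cell cannot be told apart. A list of 15 abundant adipocyte genes summed to 21514 to 38300 FPKM at PN21 and 50978 to 71457 at PN98, and 5 of the 15 rose and none fell (8 without m35). *Cidec*, of lipid droplet fusion, had the lowest adjusted p of them (limma, 0.00213) with a log2 difference of 2.16 (SE 0.19), followed by *Plin4*, a lipid droplet coat protein, with 2.13, the adipokine gene *Adipoq* with 1.45 and the fatty acid receptor gene *Cd36* with 1.11. *Fabp4*, the fatty acid binding protein of adipocytes, was at 17129 ± 4526 FPKM at PN21 and 32724 ± 4118 at PN98 (SD, n = 4; adjusted p = 0.0538), and *Car3* differed by 0.69 (adjusted p = 0.174). *Scd3*, *Scd4* and *Fads3* were higher at the age with the higher adipocyte sum, and the log2 differences of *Scd3* and *Scd4* exceeded those of all 15 adipocyte genes. The family was chosen with its differences known, and the windows shared with *Scd1* limit *Scd3* and *Scd4*, so nothing is read from that order. The part of the adipocyte share in these differences was not tested.

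Markers of other cells moved with age too. Skeletal muscle genes summed to 62.2 to 355 FPKM at PN21 and 429 to 2555 at PN98, and 2 of 6 tested rose, *Actn3* (limma, adjusted p = 0.0334) and *Atp2a1* (adjusted p = 0.0405). *Ckm*, *Myh4*, *Tnnt3* and *Myl1* did not pass (adjusted p = 0.0558, 0.0588, 0.0591 and 0.109). Schwann cell genes summed to 135 to 222 and 52.8 to 78.1 FPKM, and 2 of 2 tested fell (*Pmp22* and *Mbp*, limma adjusted p = 0.0121 and 0.0437). *Scd2* is abundant in myelinating cells, and its mean was higher at PN98, where the Schwann cell sum was lower. The part of Schwann cells in the *Scd2* values was not tested at either age. Skin and mammary epithelium genes summed to 2.47 to 28.0 FPKM at PN21 and 0.396 to 1.39 at PN98, and 1 of 4 tested fell (*Epcam*, limma adjusted p = 0.0421). *Krt18*, *Krt14* and *Krt5* did not pass (adjusted p = 0.0991, 0.168 and 0.223), and *Krt14* was at 0 in all PN98 mice and *Krt5* in 2 of them.

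*Scd1* and *Scd3* are also expressed by sebaceous glands of the skin, and the epithelial sum stood at no more than 28.0 FPKM in any mouse. It was highest in m49, the mouse with the most *Scd1*, at 28.0 FPKM, and lowest at PN21 in m138, at 2.47 FPKM, where *Scd1* was at 1907 FPKM. The list was made for skin and mammary epithelium, not for sebaceous glands. The part of these glands in the *Scd1* and *Scd3* values was not tested. Lymphocyte genes summed to 110 to 283 FPKM at PN21 and 4.36 to 282 at PN98, and none of 5 tested passed in limma with all mice and 1 had an unadjusted p under 0.05. All 5 had a lower mean log2 value at PN98, and all 5 fell without m35. Their lowest adjusted p with all mice was 0.136 (*Cd3e*), and *Cd8a*, *Cd4*, *Cd79a* and *Ms4a1* lay at 0.188, 0.223, 0.241 and 0.286. None of 4 macrophage genes passed in limma and 0 had an unadjusted p under 0.05, with sums of 64.9 to 102 and 33.8 to 121 FPKM, and adjusted p of 0.622 for *Cd68*, 0.689 for *Mrc1*, 0.783 for *Csf1r* and 0.785 for *Adgre1*.

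Adipose progenitor genes summed to 93.9 to 162 and 66.6 to 163 FPKM, and 1 of 5 fell. This was *Dlk1*, a gene of preadipocytes, from 15.2 ± 7.49 to 1.03 ± 0.487 FPKM (SD, n = 4; limma adjusted p = 0.00551), while *Cd34*, *Dpp4*, *Pdgfra* and *Pi16* did not pass (adjusted p = 0.148, 0.327, 0.390 and 0.509). None of 6 brown adipocyte genes passed in limma and 3 had an unadjusted p under 0.05, and their sums overlapped at 3036 to 6458 and 370 to 4174 FPKM. All 6 had a lower mean log2 value at PN98, with a median log2 difference of −1.08. *Ucp1*, the uncoupling protein of brown fat, was at 544 to 650 FPKM at PN21 and at 7.41 in m35, 278 in m106, 56.3 in m114 and 356 in m125 (adjusted p = 0.149), and *Dio2*, *Cox7a1* and *Cox8b* had adjusted p of 0.0798, 0.0908 and 0.200. The part of any of these cells in the desaturase values was not tested.

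The 2 microRNA rows behaved apart from their host genes. ENSMUST00000175574, *Mir5114* inside *Scd2*, did not exceed 0.000347 FPKM in any mouse. ENSMUST00000184912, *Mir6993* inside *Fads1*, was listed at 395 FPKM in m49 and 154 in m106 and at 0 in the other 6 mice, while *Fads1* was at 17.2 and 14.99 FPKM in these 2. These rows were left out of the sums of the host genes.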

How the data were processed

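ING WAT of 4 PN21 and 4 PN98 C57BL/6j mice was analysed. According to the submitters' processing notes and the study's methods, the authors ran CASAVA 1.8.2, mapped paired-end reads of 100 bases to mm10 with STAR 2.3.0, and made the deposited FPKM values, 1 per Ensembl transcript and mouse, with Cufflinks 2.1.1. The deposited table writes decimals with commas, and 40426 of 91969 transcripts had at least 1 FPKM value whose comma was lost as a grouping mark of digits. The digits were restored by requiring that the values, with those of further libraries, give the deposited average, standard deviation (found to cover 10 libraries) and score. This left a single reading for 40381 transcripts. For 22 of the others the reading that stands in a second deposited table, the authors' comparison of the ages, was taken, and 23 were left out. In 5007 transcripts with a single reading that also stand in that second table, all 8 values were equal within 1%. That table also holds the authors' own fold changes and p-values, which were not used.

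FPKM was summed per gene (GENCODE vM21, 38361 genes, and 23 genes with an unread transcript left out), without rescaling. Ages were compared with limma 3.58.1 in R 4.3.3 as PN98 minus PN21 on log2(summed FPKM + 1), for genes with a mean of at least 1 FPKM. The study's own design was fitted as well, on log2(FPKM) for transcripts without a value of 0 and with a mean above 2 FPKM at PN21 or PN98. P-values were adjusted by Benjamini-Hochberg over every gene or transcript tested, and the threshold was 0.05. The methods were tested on simulated data. Some marker genes are not reported here and were left out of their lists. The members and lists were chosen with earlier results of these data known. From each list, up to 4 genes with the lowest p and the 2 with the highest mean FPKM are named. *Plin1* is named besides for its low level. The neighbours are the 3 nearest protein coding genes on each side. The labels do not say whether the samples are from separate litters, and p-values measure the spread between these mice. The alternatives were scaling by the median of ratios, scaling to nuclear genes, sample weights, other pseudocounts and filters, the highest transcript alone, and leaving out each mouse.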

Additional observations from a re-analysis of the deposited data

Results flagged for a closer look

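In each group of 4 mice, a value was flagged when its gap to the nearest other value, divided by the range of the group, was above Dixon's critical value for 4 values. Of 49 groups of 4, 8 were flagged, and chance flags about 1 in 20 groups. Many of these groups share genes and mice, so that the flags are not independent.

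At PN98, *Scd3* in m35 was at 122 FPKM against 270 to 283 in the other 3 mice, and *Scd4* in m35 at 53.2 FPKM against 99.996 to 104. The ratio of *Scd3* to *Scd4* in m35 was 2.29 against 2.67 to 2.73. In m114 the ratio of *Scd3* to *Scd2* was 0.824 against 1.31 to 1.36, and *Scd2* made up 47.0% of the *Scd* sum against 34.8% to 35.6%. At PN21 the ratio of *Scd1* to *Fasn* was 0.456 in m1 against 0.674 to 0.717. The transcript of *Mir6993* was at 395 FPKM in m49 and at 154 in m106, and at 0 in the other 3 mice of either age.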

How the results depend on the processing

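The 6 desaturases with a log2 difference were refitted under 14 alternatives each, and all 84 values moved by less than the spread between mice of 1 age. Most of these outcomes were fixed in advance. Leaving out 1 mouse cannot move the mean of groups of this size by as much as that spread. Without the filter on low values, or with the highest transcript alone, the rounded log2 differences stayed the same. Nothing is therefore read from the count of 84. *Fads1* alone changed sign, from 0.14 to −0.02 with sample weights. *Scd3*, *Scd4* and *Fads3* were called under each of the 14, and sample weights called *Fads2* as well, as lower (−0.79). Over all genes, the alternatives called from 210 of 16136 (without m106) to 4639 of 16092 (sample weights). The alternatives reuse the mice on which the family was chosen, so nothing is read from these calls. Over the alternatives that left out 1 mouse, *Scd2* ran from 0.87 to 1.56, *Scd3* from 2.71 to 3.35, *Scd4* from 2.64 to 3.17, *Fads1* from 0.03 to 0.27, *Fads2* from −0.65 to −0.42 and *Fads3* from 1.58 to 1.89. *Scd1* was at 0 in all PN98 mice under every scaling, which cannot move a value of 0.

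The counts of calls over all features moved more. Of transcripts, 314 were called (166 higher, 148 lower at PN98). The count was 496 with median of ratios scaling (323 higher), 1571 with sample weights (567 higher), 108 with a mean above 2 FPKM at both ages (72 higher), 557 with values of 0 kept (257 higher) and 343 with scaling to nuclear genes (248 higher, 95 lower). Leaving out 1 mouse gave 47 to 1777 transcripts, the highest without m35 and the lowest without m106. Of genes, 853 were called (380 higher, 473 lower), and 4639 with sample weights (1147 higher). Scaling to nuclear genes gave 835 (565 higher, 270 lower) and median of ratios scaling 1222 (752 higher, 470 lower). Leaving out 1 mouse gave 210 to 3538 genes, the highest without m35 and the lowest without m106. The median log2 difference over all genes was −0.21, and it became −0.03 under median of ratios scaling and 0.01 under nuclear scaling, so that the difference of *Fads1* is of the size of this shift. *Fads2* was at −0.34 and −0.30 under these scalings. The cause of these moves was not tested.

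With scaling to nuclear genes, calls became 8 of 15 for adipocyte genes, 5 of 6 for muscle, 1 of 2 for Schwann cell and 0 of 4 for epithelial genes, while the counts of electron supply, elongation and synthesis genes were the same. Counts for the lists without m35 were computed after seeing the data. No paired analysis was possible because each mouse has a number of its own and the replicate numbers, given in accession order, tie no PN21 mouse to a PN98 mouse. Without read counts, the depth behind a low value or a value of 0 is unknown.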
